A study of Mus musculus with 21 samples.

Results

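The effect of CTM on the liver response to LPS was read from 2 RNA sequencing libraries of mouse liver, an LPS library and an LPS plus CTM library, across all 5298 genes listed for liver. Both came from WT C57BL/6J mice injected intraperitoneally, the first with LPS at 30 mg/kg and the second with the same LPS dose plus CTM at 100 mg/kg, and RNA of both was extracted on the same date. CTM is named only as the labels name it. The labels give no age, no time after injection and no number of animals per library. A WT PBS liver of the same date served as the untreated level. The other 4 livers were a second WT LPS liver without macrophage depletion and a WT LPS liver with macrophage depletion (1 date, no LPS dose in the labels), and TG2-KO C57BL/6J livers with PBS or with LPS at 30 mg/kg (another date). With 1 library per group, nothing in liver has a replicate check and no p-value is given for it. Levels are TPM, a measure of transcript abundance scaled within each library, and differences are of log2(TPM + 1), LPS plus CTM minus LPS. TPM keep no read counts, so the depth of these libraries is unknown.

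LPS is a component of the outer membrane of Gram-negative bacteria. It is sensed by TLR4 on Kupffer cells, the resident macrophages of the liver, and on other liver cells, and it starts NF-kB signalling, cytokine release and an interferon response. Hepatocytes then raise acute phase proteins and lower many genes of drug, lipid and amino acid metabolism. The study asks about transglutaminase 2, the protein encoded by Tgm2, in inflamed macrophages and liver.

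Tgm2 itself stood at 35.7 TPM in the WT PBS liver, 424.8 TPM in the LPS liver and 429 TPM in the LPS plus CTM liver, a difference of 0.01. Undepleted and depleted livers of the other date had 382 and 351 TPM. TG2-KO tissue had 0.74 TPM without and 15.5 TPM with LPS. Tgm2 was thus high in all 4 WT livers given LPS and low in both knockout livers.

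Of the 5298 genes, 4099 averaged 1 TPM or more across the 7 livers and were compared. Differences were above 0 in 51.2% of them and below 0 in 48.3%. Only 37 of the 4099 (0.903%) were at least 2-fold higher with CTM and 46 (1.12%) at least 2-fold lower, 2.02% together, counting a difference of 1 or more on the log2(TPM + 1) scale. The median difference was 0.01, and 83.3% of genes lay within 0.5 of 0. After a median-of-ratios scaling of the libraries the same counts were 33 higher and 86 lower. A gene is listed for liver only where its WT LPS and PBS values lie 2-fold or more apart, so the LPS library took part in choosing every gene. Any second LPS liver would then tend to lie nearer to PBS than the first, and such a shift cannot be told apart from CTM in this pair. More genes were 2-fold apart between the second and the first WT LPS liver, with 309 genes higher and 83 lower, although date and possibly dose differ there too. For this reason the second WT LPS liver serves as another reference for each list median that follows. Against that liver the median of all 4099 genes was -0.27. List medians against it are to be read beside -0.27 and not beside 0. List counts are to be read beside the 0.903% higher and 1.12% lower over all genes. Counts above or below 0 are to be read beside 51.2% and 48.3%.

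**Figure D1:**
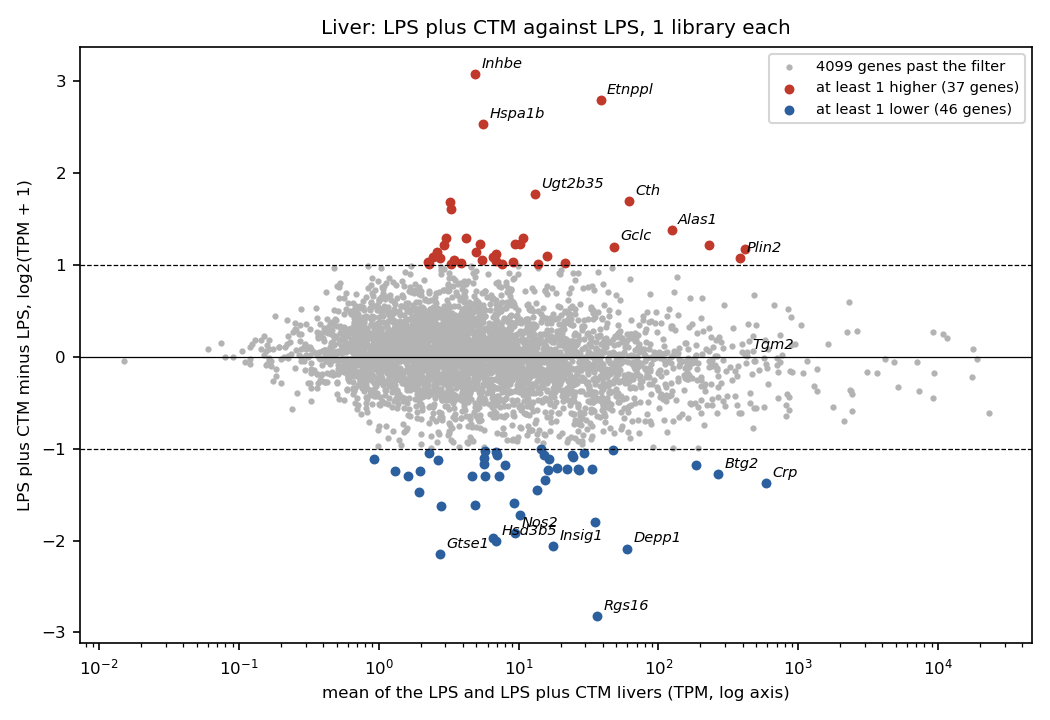
Difference of log2(TPM + 1) between the LPS plus CTM and the LPS liver (vertical axis) against the mean TPM of both (horizontal log axis), 1 point per gene. The 37 red and 46 blue points lie at or beyond the dashed lines at 1 and -1, while Tgm2 lies at 0.01.

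Among genes with at least 10 TPM in the higher library, 17 were at least 2-fold higher with CTM, and the highest was Etnppl, which encodes an enzyme that breaks down phosphoethanolamine and lies on chromosome 3 from 130617448 to 130637521 (GRCm38, GENCODE, protein-coding). It stood at 8.95 TPM in the LPS liver and 68.3 TPM in the LPS plus CTM liver, a difference of 2.80. The PBS liver held 44.0 TPM, the second WT LPS liver 11.4 TPM, the depleted liver 23.4 TPM, and the TG2-KO livers 30.7 TPM with PBS and 12.6 TPM with LPS. The CTM liver was the highest of all 7 for Etnppl. Ugt2b35, a UDP-glucuronosyltransferase of drug and steroid conjugation, was 5.39 TPM with LPS and 20.8 TPM with CTM. The 3 other LPS livers held between 8.47 and 11.1 TPM of it, so the CTM liver lay between these and the PBS liver at 35.5 TPM. The Ugt2b genes are close paralogs, and how reads were divided between them is not given in the sources used here.

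Cth, which makes cysteine from cystathionine, was 28.4 TPM with LPS and 94.5 TPM with CTM, a difference of 1.70. For Cth the second WT LPS liver held 45.0 TPM, the TG2-KO LPS liver 65.6 TPM and the depleted liver 178 TPM, so the CTM value lay within the range of the other LPS livers. Cth was the single one of 11 sulfur amino acid genes at least 2-fold higher, and 7 of the 11 lay below 0, with a median of -0.06 and of -0.23 against the second WT LPS liver. Over all genes 48.3% lay below 0. Gclc, the catalytic subunit of the rate-limiting enzyme of glutathione synthesis, was 28.6 TPM with LPS and 67.1 TPM with CTM, a difference of 1.20. Its level in the PBS liver was 58.6 TPM and in the 3 other LPS livers 26.4 to 45.5 TPM, so the CTM liver was again the highest of the 7. Gclm, the modifier subunit of the same enzyme, was 0.75 higher with CTM (17.3 against 29.8 TPM). Hmox1, a heme-degrading enzyme that the same transcription factor NRF2 controls, went the other way, from 256 TPM to 128 TPM, a difference of -0.997 that lay just under the 2-fold mark. Of the 10 NRF2 and glutathione genes compared, Gclc was the single member at least 2-fold higher and none was 2-fold lower, with a list median of 0.15 and of -0.15 against the second WT LPS liver.

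Plin2, which encodes a protein that coats lipid droplets, was 248 TPM with LPS and 525 TPM with CTM, a difference of 1.08. The PBS liver held 122 TPM and the 3 other LPS livers 202, 307 and 249 TPM of Plin2, all below the CTM liver. Acly, which supplies cytosolic acetyl-CoA, was 5.70 TPM with LPS and 14.7 TPM with CTM, and the PBS liver held 29.9 TPM. Of 15 lipogenesis genes compared, 3 were at least 2-fold higher (Acly; Gpam, which starts triglyceride synthesis; and Elovl3, a fatty acid elongase) and none was 2-fold lower. Over all genes 0.903% were 2-fold higher and 1.12% lower. The list median was 0.05, -0.04 after scaling and -0.25 against the second WT LPS liver. All genes had 0.01, -0.08 and -0.27 in these settings. Fasn, the fatty acid synthase, was 21.4 TPM with LPS and 16.6 TPM with CTM.

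Heme and drug metabolism genes held some of the most abundant differences. Alas1, the rate-limiting enzyme of heme synthesis, was 68.6 TPM with LPS and 180 TPM with CTM, a difference of 1.38. It reached 249 TPM in the second WT LPS liver, and against that liver the difference turned to -0.46. Cyp2a5, a cytochrome P450, was 257 TPM with LPS and 580 TPM with CTM, near the PBS level of 614 TPM, and the 3 other LPS livers held 114 to 339.5 TPM. In all, 2 of 24 cytochrome P450 genes (Cyp2a5 and Cyp39a1) and 2 of 18 conjugation enzymes (Ugt2b35 and Gstt3) were at least 2-fold higher, and none was 2-fold lower. Over all genes 0.903% were 2-fold higher. The medians of the cytochrome P450 and conjugation lists were 0.04 and 0.06, against 0.01 for all genes. After scaling they were -0.03 and -0.06, where all genes had -0.08. Against the second WT LPS liver they were -0.21 and -0.19, where all genes had -0.27.

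The remaining genes of the 15 highest were between the LPS and the PBS level or beside other LPS livers. Nudt7, a peroxisomal enzyme that cleaves coenzyme A, was 536.5 TPM with PBS, 137 TPM with LPS and 321 TPM with CTM, above the 134 to 293 TPM of the 3 other LPS livers. Fgf1, a growth factor, was 5.23 TPM with LPS and 13.6 TPM with CTM, and 39.0 TPM with PBS. Lrp5, a Wnt co-receptor, was 5.6 and 12.5 TPM, and Gstt3, a glutathione transferase, 13.9 and 29.2 TPM. For Fgf1, Lrp5 and Gstt3 the CTM liver lay within the range of the other LPS livers. Rab30, a small GTPase of the Golgi, was 2.52 TPM with PBS, 5.83 TPM with LPS and 15.8 TPM with CTM, so the CTM liver was farther from PBS. Paqr9 was 9.71 TPM with LPS and 21.97 TPM with CTM, but the second WT LPS liver held 25.3 TPM, which turned the difference to -0.19.

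At the other end, 28 genes with at least 10 TPM in the higher library were at least 2-fold lower with CTM. Rgs16, which speeds the shut-off of G protein signals and lies on chromosome 1 from 153740349 to 153745468 (GRCm38, GENCODE, protein-coding), was 64.8 TPM with LPS and 8.29 TPM with CTM, a difference of -2.82. It was 14.3 TPM with PBS, 12.7 TPM in the second WT LPS liver, 4.50 TPM in the depleted liver and 103 TPM in the TG2-KO LPS liver. The LPS liver was thus itself high for Rgs16, and against the second WT LPS liver the difference was -0.56. Depp1, a target of FOXO factors, behaved alike, with 97.1 TPM with LPS, 22.1 TPM with CTM and 22.2 TPM in the second WT LPS liver, a difference of -0.01 against that liver.

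Nos2, the inducible nitric oxide synthase, was 0.04 TPM in the PBS liver, 15.5 TPM with LPS and 3.36 TPM with CTM, a difference of -1.92. In the second WT LPS liver Nos2 was 10.2 TPM, in the TG2-KO LPS liver 12.0 TPM and in the depleted liver 2.25 TPM. The CTM liver was therefore below both other undepleted LPS livers and above the depleted one for Nos2. Ubd, a ubiquitin-like modifier raised by cytokines, was 54.9 TPM with LPS and 15.04 TPM with CTM, with 47.4 TPM in the second WT LPS liver and 7.74 TPM in the TG2-KO LPS liver. Crp, an acute phase protein, was 255 TPM with PBS, 854 TPM with LPS and 329 TPM with CTM, a difference of -1.37. The 3 other LPS livers held 592 to 944 TPM of Crp, so the CTM liver lay below every other LPS liver and near PBS. Avpr1a, a vasopressin receptor, was 20.4 TPM with LPS and 6.82 TPM with CTM, and 4.43 TPM in the depleted liver.

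Hsd3b5, a steroid enzyme of mouse liver, was 188 TPM with PBS, 11.6 TPM with LPS and 2.13 TPM with CTM, so its CTM value lay farther from PBS than the LPS value. The second WT LPS liver held 10.6 TPM of Hsd3b5 and the depleted liver 0.91 TPM. Pla2g16, a phospholipase, was 16.3 TPM with LPS and 4.23 TPM with CTM, near the 4.87 TPM of the PBS liver and below the 5.75 to 16.7 TPM of the 3 other LPS livers. Fam107a was 11.1 TPM with LPS and 2.09 TPM with CTM, and Plekha4 14.5 and 4.16 TPM. For both the depleted liver was as low as the CTM liver or lower, at 2 TPM of Fam107a and 3.41 TPM of Plekha4. Orm3, an orosomucoid of the acute phase, was 10.7 TPM with LPS and 3.77 TPM with CTM, below the 12.7 to 22.7 TPM of the 3 other LPS livers.

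**Figure D2:**
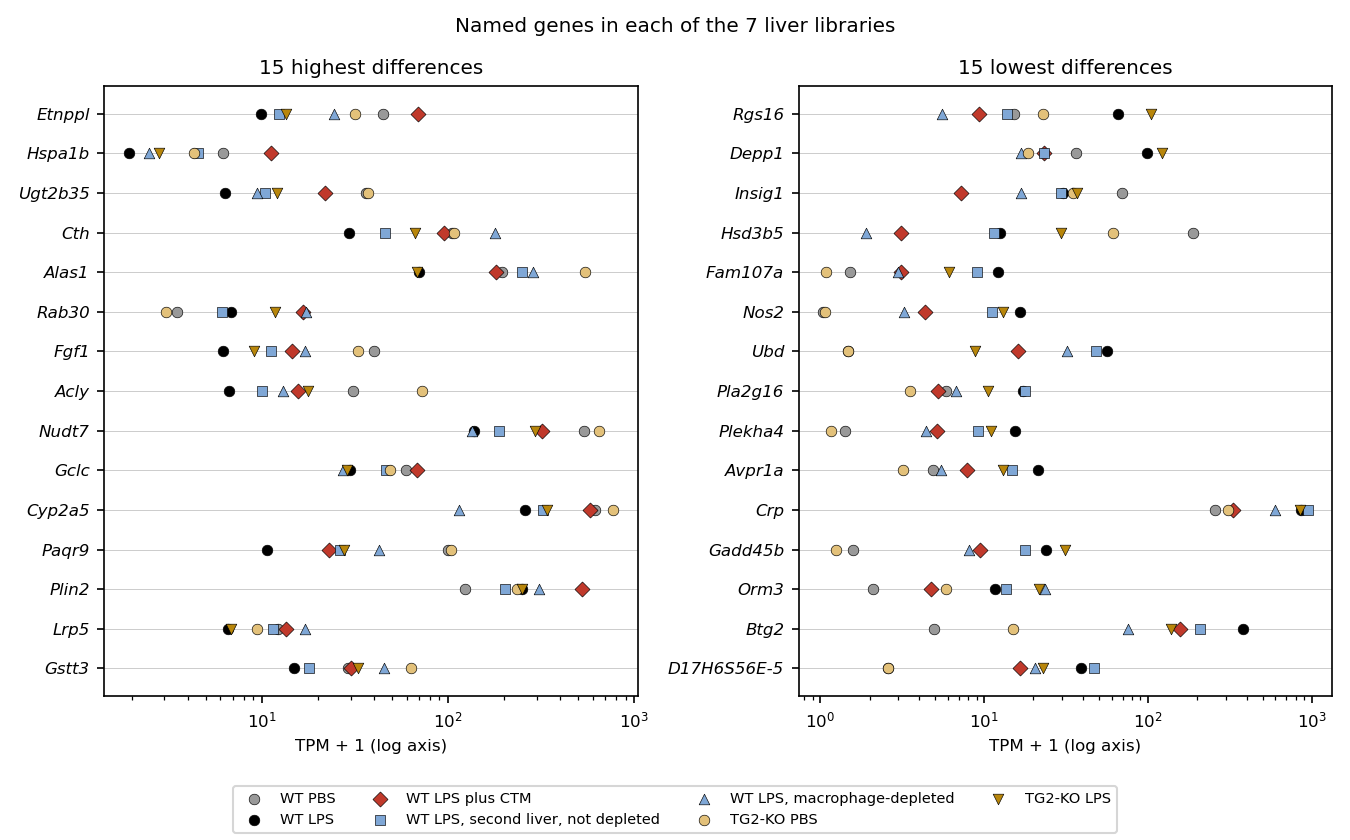
TPM + 1 (horizontal log axis) of the 15 genes with the highest and the 15 with the lowest difference at 10 TPM or more, in each of the 7 liver libraries, 1 symbol per library. The CTM liver (red diamond) is the rightmost symbol for Etnppl, Hspa1b, Gclc and Plin2, and for Rgs16, Depp1 and Btg2 the second undepleted LPS liver also lies below the first.

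Against the LPS liver of the same date, the p53 targets had the lowest median of the gene groups apart from the 3 GADD45 genes. p53 is a transcription factor that is stabilised by DNA damage and other stress and turns on genes of growth arrest, repair and cell death. Of the 16 p53 targets compared, 5 were at least 2-fold lower with CTM, none was 2-fold higher and 15 lay below 0, with a median of -0.72. Over all genes 1.12% were 2-fold lower and 48.3% lay below 0. Of the genes at least 2-fold higher with LPS in TG2-KO livers, 68.8% lay below 0. Against the second WT LPS liver the median of the p53 targets was -0.44, where all genes had -0.27. Other lists lay lower there, among them cholesterol synthesis and uptake (-0.71) and glucose handling (-0.57). The CTM liver was below all 3 other LPS livers for 5 of the 16 targets, and for 41.3% of all genes. Ccng1, a cyclin and classical p53 target, was 7.76 TPM in the PBS liver, 26.5 TPM in the LPS liver, 10.9 TPM in the CTM liver and 38.1 TPM in the second WT LPS liver. It was also low in the depleted liver (11.1 TPM) and the TG2-KO LPS liver (10.97 TPM), so the 2 undepleted WT livers given LPS alone were high and all others low. Gtse1, a regulator of p53, was 5.08 TPM with LPS, 0.37 TPM with CTM and 7.75 TPM in the second WT LPS liver, the widest difference of the list at -2.15. Phlda3, a repressor of AKT, was 4.69 TPM with LPS and 0.84 TPM with CTM, and Tnfrsf10b, a death receptor, 3.34 and 0.56 TPM. These 3 genes lay under 10 TPM and were looked at because they belong to the list.

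Btg2, another of the 5 lower p53 targets, which restrains proliferation, was 380.3 TPM with LPS and 156 TPM with CTM, a difference of -1.28, but the second WT LPS liver already held 207 TPM. The remaining targets named here were less than 2-fold apart. Mdm2, the ubiquitin ligase that degrades p53, was 29.6 TPM with LPS and 15.1 TPM with CTM, a difference of -0.93. Cdkn1a, the cell cycle inhibitor p21, was 278 TPM with LPS and 251 TPM with CTM, a difference of -0.15. Trp53inp1, a stress protein of the p53 response, differed by -0.66 from the LPS liver and by 1.11 from the second WT LPS liver. Members of the list thus ranged from -2.15 to 0.05.

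A p53 decamer motif (a half-site) was searched on both strands of the 250 bases before each gene's start, with promoter sequences from RefSeq (build GRCm38.p6). The motif was present in 5 of the 13 p53 targets with an entry (Aen, Ccng1, Cdkn1a, Mdm2 and Sesn1) and in 7.13% of all 32851 promoters. A match describes letters only and shows no binding. The list was made of p53 targets, so its excess over all promoters says nothing about the CTM difference. Ccng1 (chr11:40755287-40755536, minus strand) and Mdm2 (chr10:117710759-117711008, minus strand) are shown 5′ to 3′ with the motif in capitals, which begins 185 and 186 bases before the start.
Ccng1: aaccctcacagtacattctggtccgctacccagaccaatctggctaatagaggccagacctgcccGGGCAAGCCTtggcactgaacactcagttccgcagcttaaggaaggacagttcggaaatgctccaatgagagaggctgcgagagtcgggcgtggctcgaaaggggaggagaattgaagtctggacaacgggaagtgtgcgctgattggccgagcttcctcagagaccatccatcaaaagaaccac
Mdm2: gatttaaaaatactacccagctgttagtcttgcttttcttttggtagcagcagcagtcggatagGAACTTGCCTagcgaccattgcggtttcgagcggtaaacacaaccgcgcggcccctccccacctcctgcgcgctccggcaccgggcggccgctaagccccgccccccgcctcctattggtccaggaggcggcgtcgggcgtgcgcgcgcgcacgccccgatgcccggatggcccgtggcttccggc

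Genes of cholesterol synthesis and uptake lay mostly below 0. They are controlled by SREBP2, which sterols hold in the endoplasmic reticulum together with INSIG proteins. Of the 11 genes reported, 2 were at least 2-fold lower, none was 2-fold higher and 8 lay below 0, against 1.12% and 48.3% of all genes 2-fold lower and below 0, with a median of -0.27 and of -0.71 against the second WT LPS liver. Insig1 was 68.3 TPM in the PBS liver, 29.1 TPM in the LPS liver, 6.23 TPM in the CTM liver and 28.4 TPM in the second WT LPS liver. The depleted liver held 15.7 TPM and the TG2-KO livers 33.9 and 35.9 TPM, so the CTM liver was the lowest of the 7. Sqle, an oxygenase of sterol synthesis, was 4 TPM with LPS and 1.29 TPM with CTM, at the PBS level of 1.24 TPM. For Insig1 the CTM liver thus lay farther from PBS than the LPS liver did. Stard4, a sterol carrier, differed by -0.81 (1.89 against 0.65 TPM), and Idi1, an isomerase of the pathway, by -0.66. The CTM liver was below all 3 other LPS livers for 10 of the 11 genes, while over all genes it was below them for 41.3%.

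The 250 bases before the Insig1 start (chr5:28071162-28071411, plus strand, RefSeq, GRCm38.p6) are shown because Insig1 was the lowest of the sterol genes. The capitals mark an E-box CACGTG, a palindrome and so the same on both strands, which begins 101 bases before the start and occurs in 6.02% of promoters of the same length.
Insig1: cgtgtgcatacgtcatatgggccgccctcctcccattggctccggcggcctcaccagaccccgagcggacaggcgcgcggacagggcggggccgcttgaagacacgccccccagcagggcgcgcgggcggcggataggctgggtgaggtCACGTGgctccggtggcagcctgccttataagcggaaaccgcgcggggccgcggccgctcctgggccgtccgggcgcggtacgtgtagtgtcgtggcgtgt

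**Figure D3:**
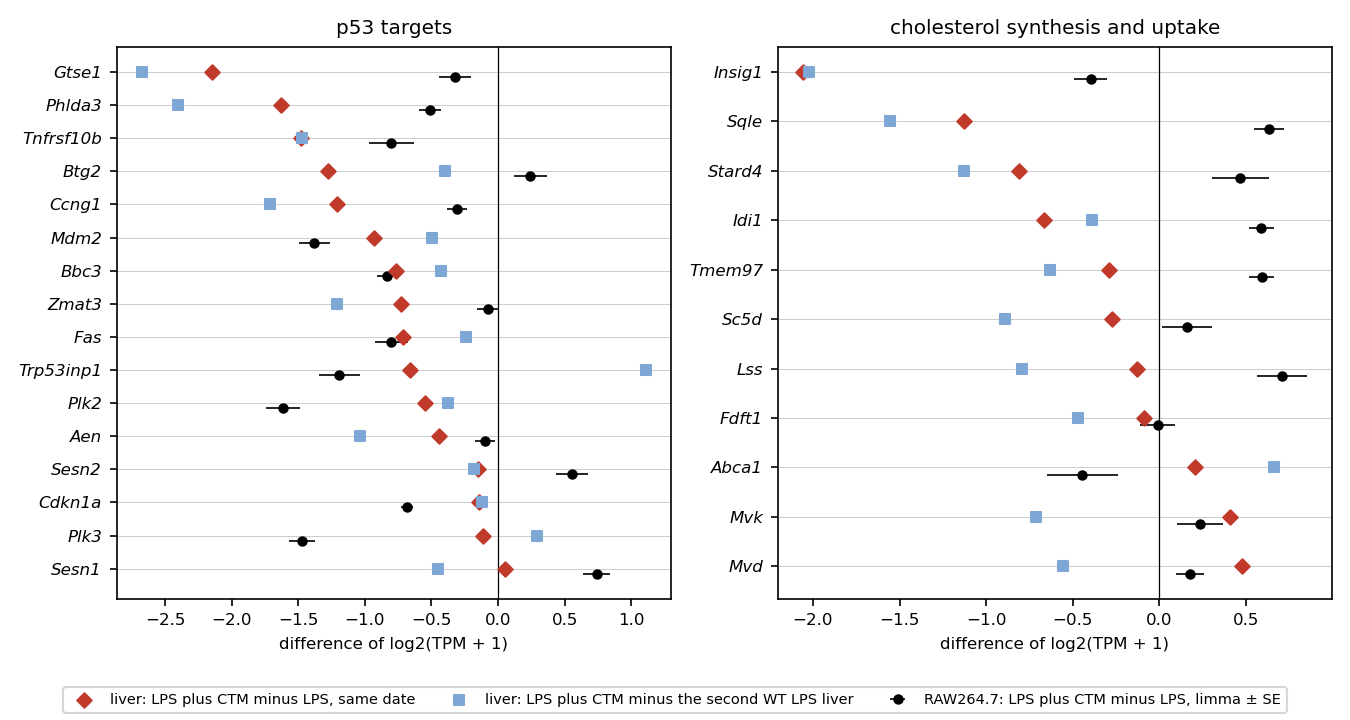
Differences of log2(TPM + 1) for each p53 target (left) and 11 genes of cholesterol synthesis and uptake (right): red diamonds are the CTM liver against the LPS liver of the same date, blue squares against the second WT LPS liver, and black points the RAW264.7 cells at 24 h with the SE of the limma fit. Of the 16 p53 targets 15 red diamonds lie below 0, and for the sterol genes most black points lie above 0.

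Stress and protein folding genes did not move as 1 block. Hspa1b, an inducible HSP70 chaperone, was 5.21 TPM with PBS, 0.93 TPM with LPS and 10.2 TPM with CTM, a difference of 2.54. The 3 other LPS livers held 1.48 to 3.54 TPM, all below the CTM liver. Hspa1b has a near-identical copy, Hspa1a, so the division of reads between them is uncertain. Of 10 heat shock chaperones compared, Hspa1b was the single one at least 2-fold higher, and the list median was 0.32, and -0.21 against the second WT LPS liver. The genes of ER chaperones and the unfolded protein response had a median of -0.02, and of 0.64 against the second WT LPS liver. None of the 10 was at least 2-fold apart. Within them Hspa5, the main ER chaperone, was 700.5 TPM with LPS, 1004 TPM with CTM and 388 TPM in the second WT LPS liver, and Sdf2l1 was 24.4, 42.5 and 20.2 TPM. Of 16 genes of the ATF4 amino acid response none was 2-fold apart, with a median of 0.17 and of 0.22 against the second WT LPS liver. Chac1, which degrades glutathione, was 31.5 TPM with LPS, 62.4 TPM with CTM and 27.2 TPM in the second WT LPS liver. Ddit3, the stress factor CHOP, was 0.91 higher and Ddit4, an inhibitor of mTORC1, differed by -0.73.

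The Hspa1b promoter (chr17:34959239-34959488, minus strand, RefSeq, GRCm38.p6) is shown as that of the heat shock gene with the widest difference. The capitals mark the heat shock motif GAANNTTC, a palindrome searched on both strands, which begins 104 bases before the start and occurs in 6.69% of promoters of the same length.
Hspa1b: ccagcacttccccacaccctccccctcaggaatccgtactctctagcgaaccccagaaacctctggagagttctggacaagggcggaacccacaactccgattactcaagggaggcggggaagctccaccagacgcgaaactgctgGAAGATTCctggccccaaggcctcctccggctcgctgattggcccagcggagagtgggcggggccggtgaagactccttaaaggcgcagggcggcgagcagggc

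Inflammatory genes lay mostly slightly below 0 in this pair. The share below 0 was 48.3% of all genes. It was 68.8% of the genes at least 2-fold higher with LPS in TG2-KO livers, whose median was -0.18. Of 11 cytokine genes 10 were below 0 and 1, Il27 at 8.05 TPM with LPS and 3.45 TPM with CTM, was at least 2-fold lower, with a median of -0.16. Il1b was 17.6 TPM with LPS and 17.4 TPM with CTM, Il6 was 3.61 and 3.13 TPM, and Tnf 4.97 and 4.33 TPM, so these 3 central cytokines were close in the 2 livers. Of 16 chemokines 11 were below 0 with a median of -0.37 and none was 2-fold apart. Cxcl2, which attracts neutrophils, was 92.6 TPM with LPS and 51.8 TPM with CTM, Ccl3 was 56.9 and 33.0 TPM, and Cxcl9, an interferon gamma target, 2636 and 1621 TPM. Against the second WT LPS liver the medians turned to 0.45 for cytokines and 0.23 for chemokines, so the direction depended on which LPS liver was the reference.

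The NF-kB feedback and target genes had a median of -0.22, and of -0.14 against the second WT LPS liver, where all genes had 0.01 and -0.27. Of the genes at least 2-fold higher with LPS in TG2-KO livers 68.8% lay below 0, with a median of -0.18. While 48.3% of all genes lay below 0 and 1.12% were 2-fold lower, 17 of the 21 NF-kB genes lay below 0. Among the 21, 1 was at least 2-fold lower. That gene, Nfkb2, which encodes the p100 precursor subunit, was 19.7 TPM with LPS and 9.37 TPM with CTM, which lies exactly on the 2-fold mark, and the second WT LPS liver held 19.2 TPM. Nfkb1 and Relb, other subunits, differed by -0.85 and -0.75. Irak3, a brake on Toll-like receptor signals, was 43.0 TPM with LPS and 22.7 TPM with CTM, below the 26.8 to 39.6 TPM of the 3 other LPS livers. Of the immediate early genes 2 of 17 were 2-fold lower, Btg2 and Klf2, where 1.12% of all genes were. But Klf2 was 0.19 higher than in the second WT LPS liver, and the list median turned from -0.25 to 0.50 against it. The 3 GADD45 genes all lay below 0 with a median of -0.83, which turned to 0.17 against the second WT LPS liver. There Gadd45a was 0.64 higher and Gadd45g 0.17 higher with CTM. Gadd45b, a stress protein that NF-kB induces, was 22.7 TPM with LPS, 8.39 TPM with CTM and 16.7 TPM in the second WT LPS liver.

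Few acute phase and interferon genes were 2-fold apart. Of 26 acute phase genes 2 (Crp and Orm3) were at least 2-fold lower, where 1.12% of all genes were. The median was -0.07, and -0.09 against the second WT LPS liver, where all genes had 0.01 and -0.27. Saa2, a serum amyloid A protein and the most abundant transcript of the CTM liver, was 18994 TPM with LPS and 18767 TPM with CTM. The Saa and Orm genes are families of close paralogs. Of 32 interferon-stimulated genes 1 was 2-fold lower, Ifi44 at 32.7 TPM with LPS and 15.1 TPM with CTM, with a list median of -0.20 and of 0.38 against the second WT LPS liver. The 17 GBP and IRG GTPases had a median of -0.18, which turned to 0.32 against the second WT LPS liver. Of them 10 were above all 3 other LPS livers, where 12.9% of all genes were. The 14 genes of MHC class I and the immunoproteasome had a median of -0.25. Against the second WT LPS liver it was -0.11, where all genes had -0.27. None was 2-fold apart in either list. In the MHC class I list 13 of 14 lay below 0, and H2-Q7 was 111 TPM with LPS and 66.5 TPM with CTM. The share below 0 was 48.3% of all genes and 68.8% of the genes at least 2-fold higher with LPS in TG2-KO livers.

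Genes of glucose handling had a median of -0.34, and of -0.57 against the second WT LPS liver. Of them 15 of 19 lay below 0, where 48.3% of all genes did. Slc2a1, the glucose transporter GLUT1, was 22.8 TPM with LPS and 10.01 TPM with CTM, and the second WT LPS liver held 26.5 TPM. It was the single gene of the list at least 2-fold apart. The glycolytic regulator Pfkfb3 was 108 TPM with LPS and 65.8 TPM with CTM, but 59.5 TPM in the second WT LPS liver. Amino acid breakdown genes had a median of 0.20, and of -0.11 against that liver. Of them 14 of 22 lay above 0, where 51.2% of all genes did, and none was 2-fold apart. Of 17 hepatocyte transcription factors 2 were at least 2-fold higher, Onecut1 (1.12 against 5.48 TPM) and Nr1i2, the xenobiotic receptor PXR (2.77 against 7.81 TPM), both higher still in the PBS liver. Over all genes 0.903% were 2-fold higher. The median of the transcription factors was 0.06 and turned to -0.46 against the second WT LPS liver, where all genes had -0.27. Nr1i2 was 13.5 TPM in the second WT LPS liver, more than in the CTM liver.

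**Figure D4:**
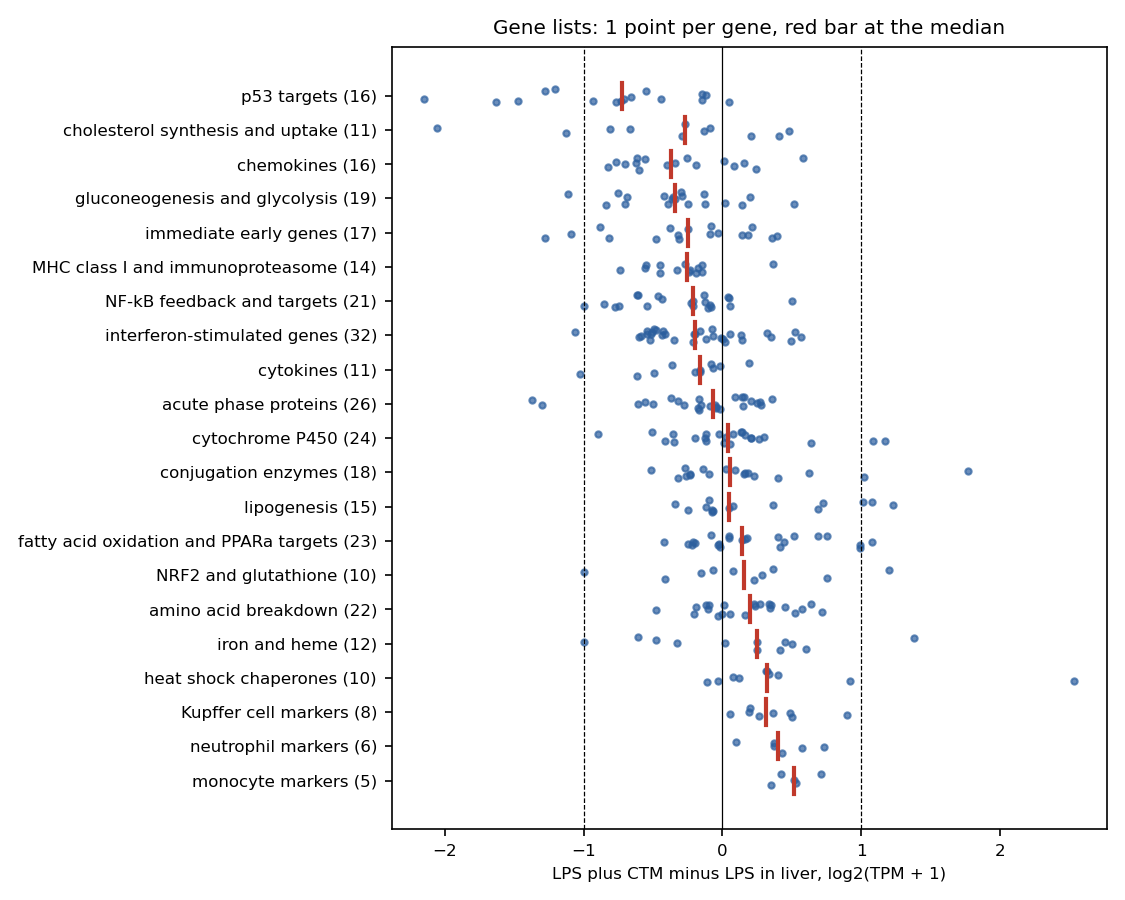
Difference of log2(TPM + 1) between the LPS plus CTM and the LPS liver for the members of 21 gene lists, 1 point per gene and a red bar at each median, with the number of genes compared in parentheses. The p53 targets have the lowest median of the lists drawn (-0.72) and the monocyte markers the highest (0.51).

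Cell type markers moved along with these differences, and in bulk liver more cells of a type and more RNA per cell cannot be told apart. Over all genes 51.2% lay above 0 and 48.3% below 0. Of 10 Kupffer cell markers 8 were listed and all 8 lay above 0, with a summed level of 58.2 TPM with LPS and 84.6 TPM with CTM. The sums were 121 TPM in the PBS liver, 128 TPM in the second WT LPS liver and 17.02 TPM in the depleted liver. Of 8 monocyte markers 5 were listed, all above 0 (51.1 against 72.4 TPM), and of 11 neutrophil markers 8 were listed and summed to 88.3 TPM with LPS and 120 TPM with CTM. The 4 red cell genes listed of 5, hemoglobin genes, were all lower with CTM, with 6230 TPM summed in the LPS liver and 4190 TPM in the CTM liver. The other 5 livers held between 240.1 and 2506 TPM of them, so both livers of the comparison were high in hemoglobin transcripts. Against the second WT LPS liver the medians turned to -0.60 for Kupffer cell, -0.21 for monocyte and -0.08 for neutrophil markers and to 1.54 for red cell genes. All genes had a median of -0.27 there. Sums for sinusoidal endothelial cells were 45.4 and 52.9 TPM. Of 8 hepatocyte markers 1, Cyp2e1, was listed, at 2632 and 2051 TPM, and of the 5 B cell markers none, since a gene must differ between LPS and PBS to be listed. No listed marker was at 0 in both livers. The part of cell composition in the differences was not tested.

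The CTM liver was set beside the 3 LPS livers of other dates, in a comparison chosen after the values had been seen. Of the 37 higher genes 14 were above all 3 of them, 2 below all 3 and 21 within their range, while over all genes 12.9% were above all 3. Of the 46 lower genes 22 were below all 3, 1 was above and 23 were within, while over all genes 41.3% were below all 3. Against the second WT LPS liver alone, 26 of the 37 and 43 of the 46 had the same direction, and 7 and 25 were 2-fold apart. Over all genes 28.4% lay above 0 and 71.3% below 0 against that liver, with 85 at least 2-fold higher and 312 lower. The 37 and 46 genes were chosen with the CTM library, which enters both differences, so part of the shared direction is built in. The other LPS livers differ from the CTM liver in extraction date. They also differ among themselves in macrophage depletion, TG2 genotype and possibly LPS dose. These and CTM cannot be told apart there.

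The genes were also split by the LPS response of the TG2-KO livers, which share no library with the CTM comparison. The 764 genes at least 2-fold higher with LPS in TG2-KO livers had a median CTM difference of -0.18, and 68.8% lay below 0. The 876 genes at least 2-fold lower with LPS there had a median of 0.14, and 34.1% lay below 0. The 2459 genes less than 2-fold apart there had a median of 0.02. The second WT LPS liver had no CTM and is compared with the same LPS library. Its medians were -0.33 for the raised genes, 0.60 for the lowered genes and 0.32 for those less than 2-fold apart. Over all genes its median was 0.30. A shift in these directions was thus also present in an LPS liver without CTM. With the second WT LPS liver as reference, the CTM medians went the other way, at 0.10 for the raised and -0.47 for the lowered genes. Genes less than 2-fold apart had -0.29 and all genes -0.27.

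The largest difference of the 4099, in a gene outside the naming rule and picked after its values were seen, was Inhbe, the gene of inhibin beta E, a secreted liver protein. It was 16.2 TPM with PBS, 0.25 TPM with LPS and 9.57 TPM with CTM, a difference of 3.08. Inhbe was 8.56 TPM in the second WT LPS liver, 16.1 TPM in the depleted liver and 0.24 TPM in the TG2-KO LPS liver. LPS livers without CTM thus spanned the whole range for Inhbe.

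LPS (1 µg/mL) with or without CTM (0.5 mM) was also given to RAW264.7, a macrophage-like cell line of mouse, for 24 h, with 2 libraries per group. In a limma fit over 11030 genes with Benjamini-Hochberg adjustment, 1781 genes were higher (16.1%) and 1042 lower (9.45%) with LPS plus CTM than with LPS, and after median-of-ratios scaling 1265 were higher and 1551 lower. The labels leave out if a group's libraries were separate cultures, so these p-values measure only the spread between libraries, which may be technical. Of the 46 genes lower in liver, 27 were tested in the cells, and 11 of these fell and 2 rose (40.7% and 7.41%). Of the 37 higher in liver, 24 were tested, and 3 rose and 5 fell (12.5% and 20.8%). Over the 3151 genes compared in both, 17.7% rose and 12.7% fell in the cells. Pearson's r over these genes was 0.15 and Spearman's rho 0.13, across genes, which are not independent replicates.

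Gadd45b was 169 and 187 TPM in the LPS cell libraries and 47.3 and 41.4 TPM in the CTM libraries, a log2 fold change of -1.98 ± 0.11 (SE) with a limma adjusted p of 0.00016. Slc2a1 was 323 and 329 TPM in the LPS libraries against 150.2 and 143 TPM (-1.15 ± 0.07, limma adjusted p = 0.000298), and Nos2 202 and 186 TPM against 120.02 and 121 TPM (-0.68 ± 0.13, limma adjusted p = 0.00902). These 3 genes were lower with CTM in both systems, and their cell groups did not overlap. Of the 16 p53 targets 10 fell and 2 rose in the cells, where 12.7% and 17.7% of the genes compared in both fell and rose. Mdm2 fell by 1.38 ± 0.11 (limma adjusted p = 0.000553), and Ccng1 by 0.31 ± 0.07 (limma adjusted p = 0.0219). Gclc rose by 0.50 ± 0.14 (limma adjusted p = 0.041).

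Other groups differed between the systems, without a test of the difference. Of the 11 sterol genes reported 4 rose and 1 fell in the cells (17.7% and 12.7% over the genes compared in both), the one that fell being Insig1 (-0.40 ± 0.10, limma adjusted p = 0.0241). Sqle, which was low in the CTM liver, was 28.3 and 24.4 TPM in the LPS cells and 41.8 and 40.8 TPM in the CTM cells (0.63 ± 0.09, limma adjusted p = 0.00333). Of 9 cytokine genes tested in the cells all 9 fell (12.7% over the genes compared in both), with a median of -1.59, where the liver median was -0.16. In the cells Il1b was 968 and 986 TPM in the LPS libraries against 225 and 192 TPM in the CTM libraries, where the livers held 17.6 and 17.4 TPM. Of 10 genes of ER chaperones and the unfolded protein response 8 rose and 1, Ern1, fell in the cells. The list median was 0.71, and 17.7% of the genes compared in both rose. Tgm2 fell in the cells by 1.08 (limma adjusted p = 0.00189), where the livers with and without CTM differed by 0.01.

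**Figure D5:**
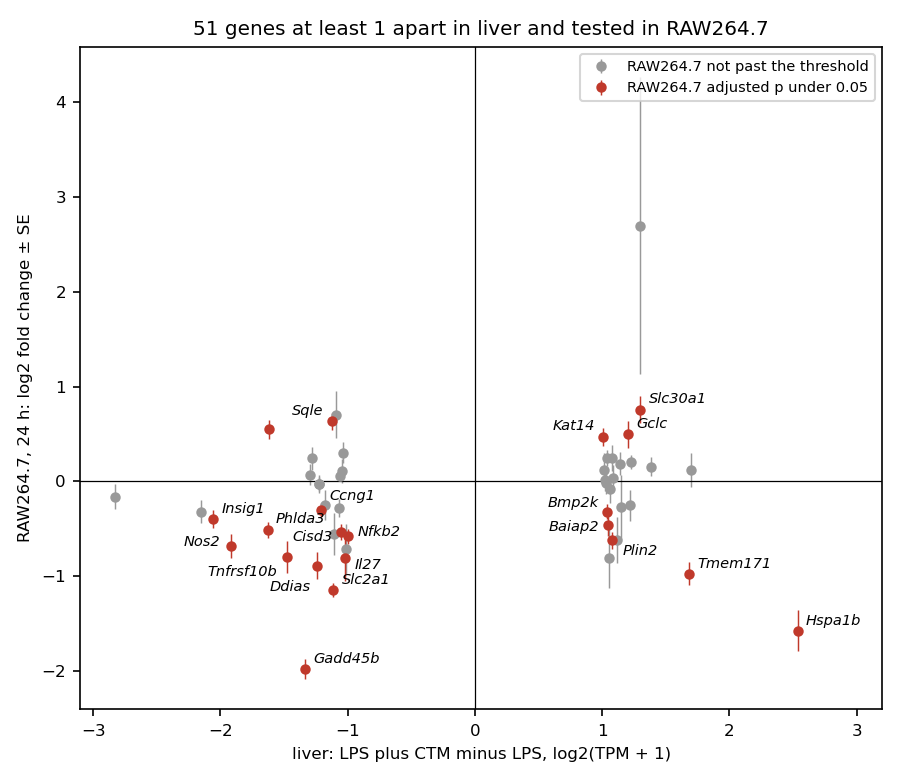
Genes at least 2-fold apart in liver that were also tested in RAW264.7 cells: liver difference of log2(TPM + 1) (horizontal) against the log2 fold change of the cells at 24 h with its SE (vertical). Red points have a limma adjusted p under 0.05, with 11 lower and 2 higher among genes lower in liver, and 3 higher and 5 lower among genes higher in liver.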

How the data were processed

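RNA was extracted with a column kit and libraries were made with a TruSeq stranded mRNA kit, per the labels' protocols. The authors deposited TPM for each gene symbol. The submitters' processing notes name Salmon and the builds mm10 and GRCm38; the version and the annotation are not given in the sources used here. TPM keep no read counts, so depth and counting error are unknown. Liver TPM are rounded to 2 decimals and list only genes at least 2-fold apart between WT LPS and PBS (0 of those with both values above 0 lay under it). The number of unused columns of per-sample values was 0. At 24 h the cell line columns carry numbers that the labels do not, so they were assigned by group.

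Genes averaging 1 TPM or more were kept, and differences of log2(TPM + 1) were taken, with a pseudocount of 1. Cell line genes were tested with limma 3.58.1 in R 4.3.3 (linear model over the 3 groups, mean-variance trend, Benjamini-Hochberg, threshold 0.05). On simulated data of 11030 genes for this comparison 73% of genes given a log2 change of 1 and 94% of those given 2 were called, and 9 of the 176 calls were false. Software was pandas 2.3.3, numpy 2.4.6, matplotlib 3.10.9 and scipy 1.17.1. Named genes were Tgm2, the 15 highest and 15 lowest with at least 10 TPM in the higher library, and up to 4 such members of each list with at least 3 members compared (51 of 61 lists); part of them is given, and list members under 10 TPM or outside those 4 were added after their values were seen. The members and lists were chosen with earlier results of these data known. Promoters were matched by symbol to RefSeq (22 of the 30 extreme genes had an entry). Vim in liver was not analysed here. Some list genes are not reported here and were left out of the counts and medians of their lists.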

Additional observations from a re-analysis of the deposited data

Results flagged for a closer look

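Liver and RAW264.7 cells moved in opposite directions with CTM for 6 genes that were at least 2-fold apart in liver and past the threshold in the cells, with no overlap between the cell groups. The difference between the systems was not tested for any of them. Plin2 was 1.08 higher in the CTM liver (525 against 248 TPM) and fell by 0.62 ± 0.09 in the cells (limma adjusted p = 0.00353), from 147 and 139 TPM to 88.1 and 97.1 TPM. Hspa1b was 2.54 higher in the CTM liver (10.2 against 0.93 TPM) and fell by 1.58 ± 0.22 in the cells (limma adjusted p = 0.00304), from 4.53 and 6.64 TPM to 0.91 and 1.48 TPM. The sterol gene Sqle differed by -1.13 in liver, where it was 4 TPM with LPS and 1.29 TPM with CTM, and rose by 0.63 ± 0.09 in the cells (limma adjusted p = 0.00333).

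Like Sqle, the other 3 genes lay under 10 TPM in both livers. Tmem171 was 1.01 TPM with LPS and 5.46 TPM with CTM in liver, a difference of 1.68, and fell in the cells from 68.6 and 74.7 TPM to 36.6 and 35.1 TPM (limma adjusted p = 0.00233). Baiap2, an adaptor of actin remodelling, was 1.04 higher in the CTM liver (4.16 against 9.64 TPM) and fell by 0.46 in the cells (limma adjusted p = 0.0333). Bmp2k, a kinase, was 1.04 higher in the CTM liver (1.12 against 3.35 TPM) and fell by 0.32 in the cells (limma adjusted p = 0.0209).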

How the results depend on the processing

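In liver the counts of genes at least 2-fold higher and lower (37 and 46) became 165 and 101 with a pseudocount of 0.1, 229 and 244 at 1.5-fold, 85 and 312 against the second WT LPS liver, and 23 and 70 against the mean of both WT LPS livers. The count of lower genes was 86 after scaling, which moved the median of all genes by -0.09. No filter or a minimum of 5 TPM left both within 1.5 times. Of the 30 extreme genes, 28 kept their direction against the second WT LPS liver (15 of them 2-fold apart) and all 30 against the mean of both (22). The CTM library that helped choose these genes enters both checks, and the mean also holds the first LPS library. Part of this agreement is thus built in. Alas1 (-0.46), Paqr9 (-0.19) and Klf2 (0.19) reversed against the second WT LPS liver; the cause was not tested. Of 51 list medians, 36 moved by 0.2 or more against that liver and none after scaling.

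In RAW264.7 cells, leaving out 1 library at a time gave 684 to 1664 genes higher and 469 to 714 lower. The lowest counts came without CTM library 3 (684 and 469), against 900 and 652 without CTM library 2, 1080 and 714 without LPS library 3 and 1664 and 683 without LPS library 2; the lone library was then assumed to vary like the other groups. A replicate block by column number, in the LPS and CTM libraries alone, gave 1398 higher and 949 lower. Deviations of same-numbered libraries had a correlation of -0.03 across genes. With 2 libraries per group this is a single value, which cannot exclude a shared culture or batch behind the numbers. No paired analysis was possible in liver because each group has 1 library. Depth limits cannot be given for TPM.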

Other observations

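Genes of other lists, not read as a whole, gave further values, as did Hamp and Rsad2 of the acute phase and interferon lists above. Timp1, an inhibitor of matrix proteases, was 37.5 TPM with LPS and 19.0 TPM with CTM, below the 30.5 to 39.4 TPM of the 3 other LPS livers. Gsdmd, which forms pores in pyroptosis, was 43.2 TPM with LPS and 23.3 TPM with CTM, also below all 3 (35.5 to 48.9 TPM). Hamp, the iron hormone hepcidin, was 27837 TPM with LPS and 18270 TPM with CTM, and 11168 TPM in the second WT LPS liver.

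Some genes were higher with CTM without being 2-fold apart. Rsad2, the antiviral protein viperin, was 537 TPM with LPS and 796 TPM with CTM, against 117 TPM in the second WT LPS liver. Pdk4, which inhibits pyruvate dehydrogenase, was 12.1 TPM with LPS and 20.1 TPM with CTM, above the 3.89 to 16.03 TPM of the 3 other LPS livers. Abcg5, a sterol exporter, was 18.0 TPM with LPS and 34.9 TPM with CTM, above their 24.1 to 31.9 TPM. The metallothionein Mt2 was 18706 TPM with LPS and 16124 TPM with CTM.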
